A study of Mus musculus with 12 samples.

Results

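Eosinophils that enter the lamina propria of the mouse small intestine (SI) carry the gut-homing integrin α4β7. The study orders these cells by time in the tissue, with loss of the integrin placed first and gain of the lectin CD22 later. The comparison described here is the first of these steps, in which the RNA of sorted α4β7− CD22− eosinophils (4 libraries) is set against that of sorted α4β7+ eosinophils (4 libraries). All 8 libraries came from wild-type C57BL/6J mice without a named treatment. The labels give the mice as female and give no age, whereas the methods of the study describe young adult mice of both sexes for its experiments as a whole. Each library held the eosinophils of a pair of pooled mice, sorted from the proximal SI as live CD45+ CD11b+ SiglecF+ MHCII− Ly6G− cells, so that a library is a pool and not 1 animal, and the α4β7− CD22− gate is defined by the absence of both markers. The genes described are the 15231 of the 36047 in the table whose normalized count averaged over 10 across these 8 libraries. The series holds a further 4 libraries of CD22+ eosinophils, 12 in all, whose levels are given only for reference.

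Eosinophils are bone marrow granulocytes that store cationic proteins and ribonucleases in granules and need interleukin-5 for their production. They leave the blood with the help of integrins and follow the eotaxin receptor CCR3 into the gut, where large numbers are present without any infection. There they stay close to an epithelium that produces retinoic acid from dietary vitamin A and takes up ligands of the aryl hydrocarbon receptor from food and microbes.

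The deposited values are normalized counts, so the sequencing depth is unknown. The sum of these values is given for each library, but depth was already scaled out, so it does not measure library size. It lay between 15783607 and 16915755 per α4β7+ library and between 15011473 and 15740374 per α4β7− CD22− library. These sums did not overlap (exact permutation test, two-sided, p = 0.0286, the smallest p that 4 against 4 libraries allow), whereas the number of genes above 0, 19982 to 21960 against 19993 to 20983, did (exact permutation p = 0.657). Log2 values correlated at 0.939 to 0.960 among α4β7+ libraries and at 0.954 to 0.962 among α4β7− CD22− libraries. Replicate 2 of the α4β7+ subset correlated at 0.939 to 0.953 with the other three, the lowest of the subset included, and stood apart from them on the leading principal components. Without it, 546 genes were called higher and 588 lower. Genes were fitted with limma on log2(normalized count + 1) and called where the change reached 1.5-fold with a p of 0.05 or less after Benjamini-Hochberg adjustment over all genes tested. The log2 fold change (log2FC) is α4β7− CD22− minus α4β7+ on this scale, given ± its standard error (SE). All adjusted p-values below are limma's, and means are given ± SD of the 4 libraries. Nothing in the labels says whether the libraries of a subset came from separate sorts, so the p-values measure the spread between these libraries.

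The sort could be followed in the RNA. Itgb7 (chr15:102215995-102231944 in GRCm38), which encodes the β7 chain of the sorted integrin, measured 2459, 3058, 1838, and 2748 in α4β7+ and 126, 182, 269, and 304 in α4β7− CD22− libraries, a fold change of -3.57 ± 0.32 on the log2 scale. Itga4, the gene of the α4 chain that also pairs with β1, went from 37469 ± 3187 to 29433 ± 908 and stayed under the fold threshold (log2FC -0.34 ± 0.07, adjusted p = 0.00265). Cd22 (chr7:30865402-30880342) measured 1108, 1364, 987, and 1000 in α4β7+ and 4088, 4247, 3693, and 5819 in α4β7− CD22− libraries. Cells sorted as CD22− thus held more Cd22 RNA than α4β7+ cells, by 1.99 ± 0.14 on the log2 scale, and less than the 13334 ± 1588 of the CD22+ libraries. Because Itgb7 and Cd22 encode the proteins used in the gate, they check the sort and are not counted as findings. Siglecf, the defining surface lectin of the sort, went from 7534 ± 449 to 7827 ± 566 and was not called (log2FC 0.05 ± 0.07, adjusted p = 0.676), and neither was Itgam, which encodes CD11b (from 35143 ± 2193 to 32738 ± 1344, log2FC -0.10 ± 0.07, adjusted p = 0.372). Itgam matches a second record, Gm49368, over 73.8% of its length, so reads may be divided between them.

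Markers of other cells were present in both subsets, where the 11 eosinophil markers took 1.06% to 1.14% of the α4β7+ totals and 0.974% to 1.07% of the α4β7− CD22− totals. Of these 11 eosinophil markers 3 were called lower (Prg2, Alox15, and Ccr3) and none higher. Their estimates lay below 0 in 9 of 11, with a median of -0.24. The largest share among other cells was that of the 11 B and plasma cell markers, most of it immunoglobulin genes, at 0.156% to 0.348% and 0.125% to 0.379%, and none of these was called. The 11 T cell markers took 0.00826% to 0.0140% of the α4β7+ totals and 0.00526% to 0.00771% of the α4β7− CD22− totals, and 6 of the 11 were called lower, with Trac at 81.8, 199.7, 86.5, and 84.9 in α4β7+ and 41.7, 35.8, 32.9, and 50.6 in α4β7− CD22− libraries. The highest Trac value was in α4β7+ replicate 2. Among the 10 markers of goblet, tuft, and enteroendocrine cells, which took 0.0115% to 0.0470% and 0.00380% to 0.0120% of the totals, Chga and Chgb were called lower (-2.63 ± 0.51 and -4.06 ± 0.70, or -2.01 for Chga without α4β7− CD22− replicate 4 and -3.39 for Chgb without replicate 3), both granins of enteroendocrine cells. All 10 estimates lay below 0 with a median of -1.55, and 4 were called lower without α4β7+ replicate 1. The 7 markers of natural killer and innate lymphoid cells took 0.00251% to 0.00343% and 0.00157% to 0.00217%, and 3 of the 5 tested were called lower, 1 without α4β7+ replicate 2. All 13 enterocyte markers had estimates below 0 with a median of -0.57 and took 0.0143% to 0.0364% and 0.0101% to 0.0289% of the totals. Of these 1 was lower, or none without α4β7+ replicates 2, 3, or 4 or α4β7− CD22− replicates 1 or 2. Of the 9 dendritic cell markers 1 was lower, or none without α4β7+ replicates 2 or 4 or α4β7− CD22− replicates 1, 2, or 3. In addition, of the 9 macrophage markers Cd68 alone was higher, and of the 5 neutrophil markers tested 1 was higher. None of the 11 B and plasma cell, 7 Paneth cell, 6 fibroblast, 5 endothelial, or 5 erythroid markers tested was called, nor was the 1 mast cell marker tested. Of the mast cell and endothelial markers, 1 each was higher at an unadjusted p under 0.05 in limma, and the endothelial markers, nearly all of whose count was Pecam1, which leukocytes also express, took 0.0617% to 0.0640% and 0.0777% to 0.0842% of the totals. Of the other uncalled lists none passed this in either direction. The part that such cells had in the results below was not tested. In bulk RNA, fewer cells of a type and less RNA per cell cannot be told apart.

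Between the subsets 1226 of the 15231 genes differed (8.05%), 558 higher (3.66%) and 668 lower (4.39%) in α4β7− CD22− eosinophils. In 1128 of the 1226 the lowest library of one subset lay above the highest of the other, against 2863 (18.8%) of all genes tested. Large changes were mostly decreases. Of the genes called, 239 rose and 315 fell at least 2-fold, 38 rose and 76 fell at least 4-fold, and 7 rose and 30 fell at least 8-fold. The balance between rises and falls depended on the scale. Higher genes made up 45.5% of the calls on the deposited scale, and 59.8% (773 higher, 519 lower) when the library totals were set equal without ribosomal protein genes. The median over all genes tested was 0.00 on the log2 scale, and this rescaling moved it by 0.09. The rescaling also made the remaining totals equal across libraries. Equal totals with ribosomal protein genes kept were not tried, so the part of these genes in the shift was not tested.

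**Figure D1:**
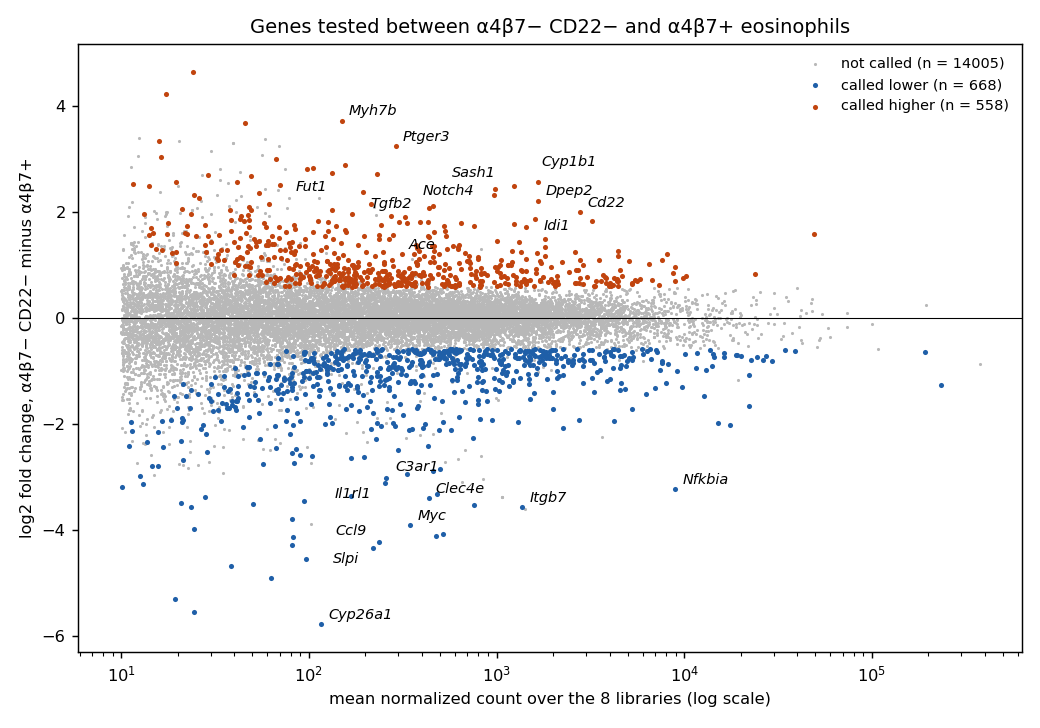
Log2 fold change (α4β7− CD22− minus α4β7+) against the mean normalized count over the 8 libraries (log axis) for the 15231 genes tested, with 558 genes called higher in orange, 668 called lower in blue, and the rest in gray. The decreases reach further from 0 than the increases, with Cyp26a1 at -5.78 the lowest labelled gene and Myh7b at 3.72 the highest.

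Of the 27 integrins and adhesion receptors tested besides the gate genes Itgb7 and Itga4, 7 fell and 1 rose (25.9% and 3.7%, against 4.39% and 3.66% of all genes), and the median was -0.26. Itgal, the α chain of the integrin LFA-1, went from 6909 ± 835 to 2714 ± 174 (log2FC -1.34 ± 0.10, adjusted p = 6.16e-07). The member that rose was Jaml, a junctional adhesion molecule-like receptor that binds the epithelial protein CAR, which measured 217, 268, 202, and 227 in α4β7+ and 524, 487, 535, and 641 in α4β7− CD22− libraries (log2FC 1.26 ± 0.12, adjusted p = 4.73e-06) and averaged 1341 ± 129.7 in CD22+ libraries. Among 17 chemokine receptors, 3 fell and 1 rose. Cxcr4, the receptor that retains granulocytes in the bone marrow, went from 6424 ± 934 to 3395 ± 260.0 (log2FC -0.91 ± 0.10, adjusted p = 1.34e-05), and Ccr3, the eotaxin receptor, from 25121 ± 2868 to 15187 ± 821 (log2FC -0.72 ± 0.08, adjusted p = 1.98e-05). The call of Ccr3 was lost under quantile normalization. Cxcr2, better known from neutrophils, rose from 780.3 ± 66.6 to 1338 ± 102 (log2FC 0.78 ± 0.11, adjusted p = 1.51e-04).

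Cyp26a1, a gene of the retinoic acid pathway, had the lowest estimate of the 668 genes called lower on the log2(normalized count + 1) scale. Retinoic acid binds the receptors RARα, RARβ, and RARγ, which switch on Cyp26a1, Cyp26b1, Dhrs3, and the receptors' own genes at paired hexamer motifs, and CYP26 enzymes in turn break retinoic acid down. Cyp26a1 (chr19:37697798-37701536) measured 225, 123, 294, and 272 in α4β7+ and 0, 3.63, 9.60, and 4.10 in α4β7− CD22− libraries (log2FC -5.78 ± 0.75, adjusted p = 9.58e-05). With a library at 0 the size of this change depended on the pseudocount, -6.78 at 0.1 and -4.03 at 10, and it was -5.11 without α4β7− CD22− replicate 1. All 4 α4β7− CD22− libraries lay far under the lowest α4β7+ library, 1 of them at 0, and the CD22+ libraries averaged 3.44 ± 3.25. Rarg, the gene of RARγ, measured 375, 278, 220.5, and 273 in α4β7+ and 79.7, 64, 109, and 86.1 in α4β7− CD22− libraries (log2FC -1.75 ± 0.21, adjusted p = 5.33e-05). Dhrs3, a retinaldehyde reductase, measured 231, 234, 204, and 216 in α4β7+ and 83.2, 79, 108, and 95.3 in α4β7− CD22− libraries (log2FC -1.27 ± 0.18, adjusted p = 1.80e-04). Cyp26b1, the second gene of this enzyme family, went from 59.2 ± 14.3 to 22.2 ± 12.3 (log2FC -1.57 ± 0.47, adjusted p = 0.0343). At the thresholds given, the call of Cyp26b1 was lost without any 1 of 5 libraries (α4β7+ replicates 1, 3, or 4 and α4β7− CD22− replicates 2 or 3), without the filter, and without limma's trend. Rara went from 1609 ± 231 to 1223 ± 65.5, under the fold threshold (log2FC -0.39 ± 0.12, adjusted p = 0.0368). Tgm2, a transglutaminase gene of very high level here, was not called (from 77887 ± 6217 to 68892 ± 2539, adjusted p = 0.276 in limma). No library of the α4β7− CD22− subset reached the α4β7+ range for Cyp26a1, Cyp26b1, Rarg, or Dhrs3.

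Cyp1b1 and Ahrr, classical targets of the aryl hydrocarbon receptor, rose. Cyp1b1 (chr17:79701537-79715061), a cytochrome P450 gene that the receptor induces, measured 501, 581, 403, and 428 in α4β7+ and 2628, 2820, 2339, and 3548 in α4β7− CD22− libraries (log2FC 2.56 ± 0.14, adjusted p = 2.62e-08). Ahrr, whose protein represses the receptor, went from 1123 ± 84.9 to 2524 ± 322 (log2FC 1.16 ± 0.10, adjusted p = 1.53e-06). The CD22+ libraries averaged 4409 ± 514 for Cyp1b1 and 3230 ± 276 for Ahrr. Nqo1, a quinone reductase that is shared between this receptor and the oxidative stress factor NRF2, fell from 837 ± 69.1 to 389.6 ± 47 (log2FC -1.11 ± 0.13, adjusted p = 2.83e-05), and Ahr itself was not called (from 17595 ± 1027 to 19869 ± 858). Over the 30 aryl hydrocarbon and retinoid genes tested, 2 were higher and 5 lower, with a median of -0.03.

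The promoters of the leading gene in each direction are shown because each holds letters that its receptor is known to bind. Rarg, with the next largest change of this list, held no DR5 retinoic acid response element in the bases searched and is not shown. The Cyp26a1 stretch (chr19:37697708-37697807, plus strand) carries in capitals a DR5 retinoic acid response element on the reverse strand, and the Cyp1b1 stretch (chr17:79715062-79715161, minus strand) carries in capitals the core GCGTG of a xenobiotic response element, read as its reverse complement. Each is printed 5′ to 3′ in the direction of transcription and ends at the base before the RefSeq start (GRCm38.p6).
Cyp26a1: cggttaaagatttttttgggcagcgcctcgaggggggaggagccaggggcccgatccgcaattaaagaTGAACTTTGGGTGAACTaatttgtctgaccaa
Cyp1b1: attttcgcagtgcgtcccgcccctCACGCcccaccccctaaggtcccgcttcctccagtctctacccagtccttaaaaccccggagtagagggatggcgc
A DR5 element on either strand occurred in 0.0883% of the 32851 RefSeq promoters (0.0568% of those of genes tested) over the 250 bases before the start, in 1 of the 10 promoters of retinoid and aryl hydrocarbon genes called (Cyp26a1), and in Rarb among those not called. GCGTG on either strand was common, at 28.2% of all promoters, 41.1% of those of genes tested, and 3 of the 10 of called retinoid and aryl hydrocarbon genes. A match describes letters in this window and not a bound site.

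**Figure D2:**
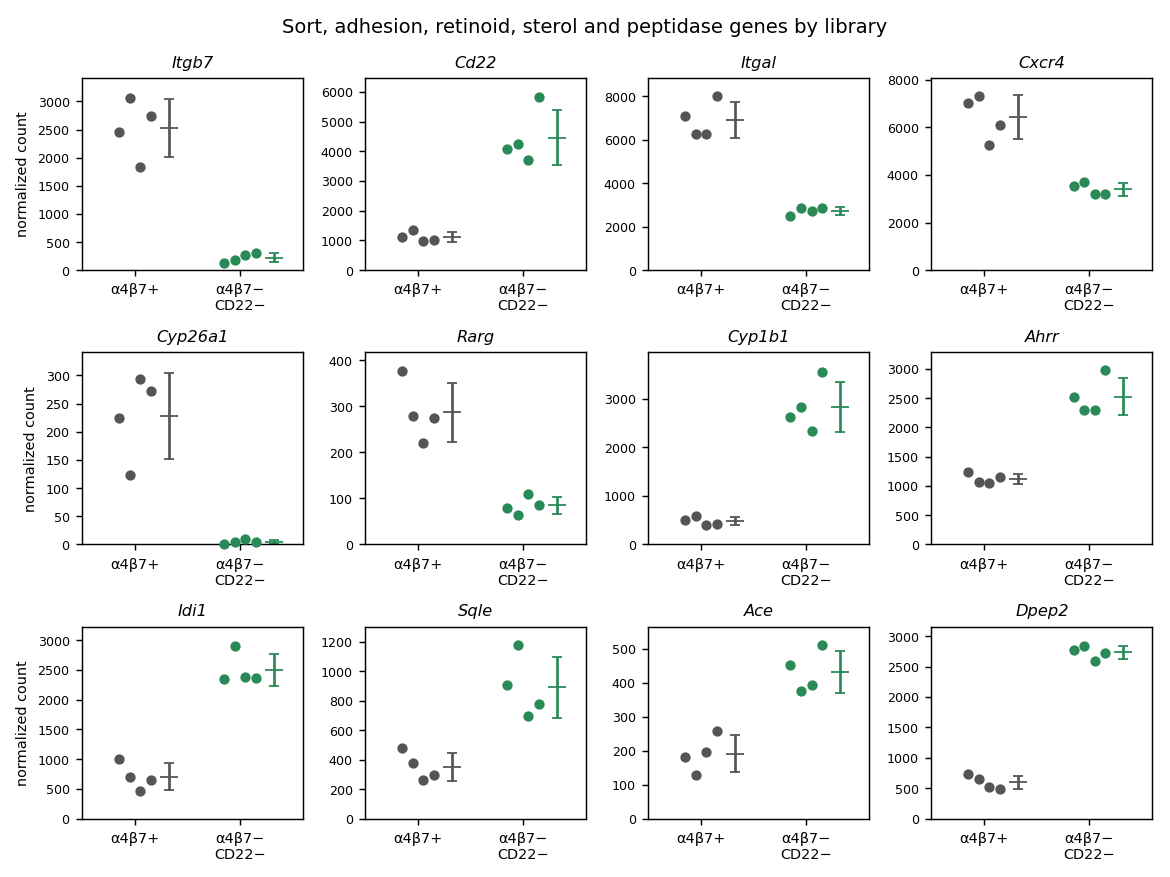
Normalized counts of 12 genes in each of the 4 α4β7+ (gray) and 4 α4β7− CD22− (green) libraries, 1 point per library in replicate order, with mean ± SD beside them and every axis starting at 0. In all 12 genes the libraries of the 2 subsets do not overlap, with Itgb7, Itgal, Cxcr4, Cyp26a1, and Rarg lower and Cd22, Cyp1b1, Ahrr, Idi1, Sqle, Ace, and Dpep2 higher in α4β7− CD22−.

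Some cytokine and chemokine genes fell in α4β7− CD22− eosinophils, and fewer rose. Of 22 cytokine genes tested 9 fell and 3 rose, with a median of -0.48 (40.9% and 13.6%), and of 19 chemokine ligand genes 7 fell and 1 rose, with a median of -0.25. The other 10 cytokine and 11 chemokine genes were not called. The summed count of the cytokine genes was 85108 ± 6917 in α4β7+ and 91799 ± 6792 in α4β7− CD22− libraries. Il6, encoding the acute-phase cytokine interleukin-6, measured 189, 126, 203, and 226 in α4β7+ and 6.82, 3.36, 7.17, and 12.5 in α4β7− CD22− libraries (log2FC -4.55 ± 0.47, adjusted p = 1.31e-05, or -3.48 at a pseudocount of 10). Tnf, the gene of tumor necrosis factor, measured 187, 198, 155, and 176 in α4β7+ and 30.2, 33.1, 16.8, and 38.5 in α4β7− CD22− libraries (log2FC -2.61 ± 0.30, adjusted p = 3.36e-05). In both genes the subsets were far apart, with no overlap. Osm, an interleukin-6 family cytokine, went from 507 ± 80.9 to 90.5 ± 16.2 (log2FC -2.48 ± 0.17, adjusted p = 3.25e-07), and Il4, the type 2 cytokine that eosinophils carry preformed, from 368 ± 62.2 to 167 ± 31.7 (log2FC -1.14 ± 0.16, adjusted p = 2.47e-04). In place of 9, 6 cytokine genes were lower without α4β7+ replicates 2 or 3, without α4β7− CD22− replicate 2, or with only genes of a mean above 50 tested.

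Among the chemokines, Ccl9 and Ccl6 are related CC chemokines that act through CCR1. Ccl9 measured 357, 494, 365, and 568 in α4β7+ and 29.3, 9.68, 40.6, and 21.2 in α4β7− CD22− libraries (log2FC -4.23 ± 0.40, adjusted p = 5.31e-06). Ccl6, with a far higher count, measured 27920, 26249, 33217, and 24973 in α4β7+ and 7171, 7034, 8241, and 5455 in α4β7− CD22− libraries (log2FC -2.02 ± 0.12, adjusted p = 4.42e-08). Cxcl10, the interferon-inducible ligand of CXCR3, went from 376 ± 57.3 to 77.3 ± 18.5 (log2FC -2.29 ± 0.24, adjusted p = 1.48e-05). The neutrophil attractants Cxcl1 (log2FC -3.38 ± 0.81, adjusted p = 0.011) and Cxcl3 (log2FC -1.23 ± 0.17, adjusted p = 1.72e-04) fell with it. For Cxcl1, with α4β7− CD22− replicate 3 at 0, the log2FC was -4.32 at a pseudocount of 0.1, -1.96 at 10, and -2.64 without that library. Cxcl2 of the same family, at a far higher level, went from 41695 ± 5904 to 27219 ± 3541 (log2FC -0.61 ± 0.11, adjusted p = 0.00193), and its call was lost under quantile normalization, with the total without ribosomal protein genes, and without any 1 of 3 libraries (α4β7+ replicates 1 or 3, α4β7− CD22− replicate 4).

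A few cytokine and chemokine genes rose instead. Il27, the gene of the p28 chain of interleukin-27, measured 132, 173, 140.1, and 116 in α4β7+ and 437, 310.3, 386, and 439.7 in α4β7− CD22− libraries (log2FC 1.48 ± 0.15, adjusted p = 1.34e-05). Tgfb2, which encodes transforming growth factor β2, measured 45.9, 129, 37.2, and 54.9 in α4β7+ and 391, 257, 213, and 428 in α4β7− CD22− libraries (log2FC 2.37 ± 0.34, adjusted p = 2.51e-04) and averaged 654 ± 203 in CD22+ libraries. Ccl4, a chemokine gene, went from 449 ± 149.7 to 982 ± 260.1 (log2FC 1.16 ± 0.27, adjusted p = 0.00836). Its neighbour and relative Ccl3 was not called (from 652 ± 156 to 929 ± 178, log2FC 0.52 ± 0.22, adjusted p = 0.131). Il1b, named here after its values were seen because it was the third cytokine gene to rise, went from 17294 ± 2297 to 30634 ± 4515 (log2FC 0.82 ± 0.13, adjusted p = 6.39e-04), while Il1rn, the gene of the receptor antagonist that blocks interleukin-1, was not called (from 24675 ± 2761 to 24380 ± 1354, log2FC -0.01 ± 0.08, adjusted p = 0.95).

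NF-κB is held in the cytoplasm by inhibitor proteins and, once free, induces cytokines, chemokines, and its own inhibitors. Of 35 genes of the pathway, 9 fell and 3 rose (25.7% and 8.57%, against 4.39% and 3.66% of all genes), with a median of -0.25. Nfkbia (chr12:55489410-55492647), which encodes the inhibitor IκBα and is a direct target of the pathway, measured 17428, 16325, 15999, and 14785 in α4β7+ and 1877, 1626, 1704, and 1662 in α4β7− CD22− libraries (log2FC -3.23 ± 0.11, adjusted p = 2.49e-10), the smallest adjusted p of all genes tested. Tnfaip3, which encodes the ubiquitin-editing inhibitor A20, measured 24049, 23636, 23424, and 25600 in α4β7+ and 6862, 5409, 6933, and 5537 in α4β7− CD22− libraries (log2FC -1.98 ± 0.09, adjusted p = 1.06e-08). Both genes had low spread between libraries of a subset. Nfkbiz (-1.01 ± 0.11), Nfkbid (-0.83 ± 0.13), and Bcl3 (-0.83 ± 0.17), nuclear members of the IκB family, also fell. Birc3, an inhibitor of apoptosis that is a target as well, moved from 14515 ± 1650 to 10652 ± 733 without reaching the fold threshold (log2FC -0.44 ± 0.08, adjusted p = 0.00203), and Tnfaip2 rose from 4830 ± 252 to 10317 ± 478 (log2FC 1.10 ± 0.10, adjusted p = 2.63e-06). Without ribosomal protein genes in the total, 6 members of the pathway list in place of 9 were lower.

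Stretches of 100 bases of 6 promoters are shown, those of the 3 called chemokine genes and the 3 called NF-κB pathway genes with the largest changes. The letters of the κB consensus, in capitals, occur in each, and 5 of these genes fell while Tnfaip2 rose. They are printed 5′ to 3′ in the direction of transcription from RefSeq (GRCm38.p6): Nfkbia from chr12:55492648-55492747, Tnfaip3 (1 of 2 promoters listed) from chr10:19015411-19015510, Ccl9 from chr11:83578637-83578736, and Cxcl10 from chr5:92348949-92349048 on the minus strand, and Cxcl1 from chr5:90891145-90891244 and Tnfaip2 from chr12:111442561-111442660 on the plus strand. The Cxcl10 stretch begins 159 bases before the start, and the others are the 100 bases just before it.
Nfkbia: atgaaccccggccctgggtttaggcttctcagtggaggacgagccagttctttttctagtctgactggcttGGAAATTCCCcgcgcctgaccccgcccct
Tnfaip3: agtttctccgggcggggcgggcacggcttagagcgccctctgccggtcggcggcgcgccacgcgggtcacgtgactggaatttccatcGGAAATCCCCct
Ccl9: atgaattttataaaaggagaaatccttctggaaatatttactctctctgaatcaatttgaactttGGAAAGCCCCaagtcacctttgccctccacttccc
Cxcl1: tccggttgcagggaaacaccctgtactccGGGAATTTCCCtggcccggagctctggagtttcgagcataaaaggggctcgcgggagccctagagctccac
Cxcl10: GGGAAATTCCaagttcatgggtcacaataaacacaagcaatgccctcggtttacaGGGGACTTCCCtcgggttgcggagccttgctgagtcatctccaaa
Tnfaip2: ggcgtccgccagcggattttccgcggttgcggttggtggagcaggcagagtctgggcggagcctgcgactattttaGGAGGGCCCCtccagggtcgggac
The Cxcl10 stretch holds 2 separate blocks of κB letters, in which overlapping matches are merged. The consensus was found on either strand in 7.25% of all promoters and 8.59% of those of genes tested, in 5 of the 6 promoters of called chemokine genes that were listed (Ccl9, Cxcl1, Cxcl2, Cxcl3, and Cxcl10) and 5 of 15 of those of chemokine genes tested, in 8 of 14 promoters of called NF-κB pathway genes and 18 of 40 of those tested, and in 12.6% of the promoters of all genes called lower against 9.8% of those of genes called higher. These shares are descriptions of the listed promoters, several of which belong to the same gene.

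Immediate early genes, which cells induce within minutes of a stimulus, moved in both directions. Of 43 tested together with the dual-specificity phosphatases that end such signals, 12 fell and 2, Egr2 and Dusp16, rose (median -0.14). Myc, a growth-promoting transcription factor gene, measured 647, 644, 499, and 807 in α4β7+ and 46.4, 54.5, 36.6, and 32.9 in α4β7− CD22− libraries (log2FC -3.90 ± 0.28, adjusted p = 4.16e-07). Dusp2, a phosphatase of MAP kinases, went from 807 ± 176 to 108 ± 23.7 (log2FC -2.88 ± 0.21, adjusted p = 6.31e-07), and Ier3, an early response gene, from 153 ± 37.7 to 25 ± 7.05 (log2FC -2.58 ± 0.35, adjusted p = 1.42e-04). Smaller decreases were found for Zfp36, whose protein destabilizes cytokine mRNA (-1.08 ± 0.09), and Jun (-0.95 ± 0.13). In contrast, Fos, Junb, and Egr1 were not called. Fos went from 31867 ± 3725 to 39660 ± 2338 and Egr1 from 30134 ± 3543 to 39511 ± 5112, both with positive estimates (0.32 ± 0.09 and 0.39 ± 0.13), and Junb from 41123 ± 4212 to 33671 ± 1554 (-0.28 ± 0.08). Of 24 genes that tissue digestion is known to induce, 9 were lower and none higher, and those 9 included Nfkbia, Nfkbiz, Zfp36, Ier3, and Jun. By adjusted p alone, without the fold threshold, 13 of the 24 were lower and 1 was higher, and the 24 together took 1.57% to 1.80% of the α4β7+ totals and 1.43% to 1.56% of the α4β7− CD22− totals. Whether cells of the 2 gates differed in their response to digestion was not tested.

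**Figure D3:**
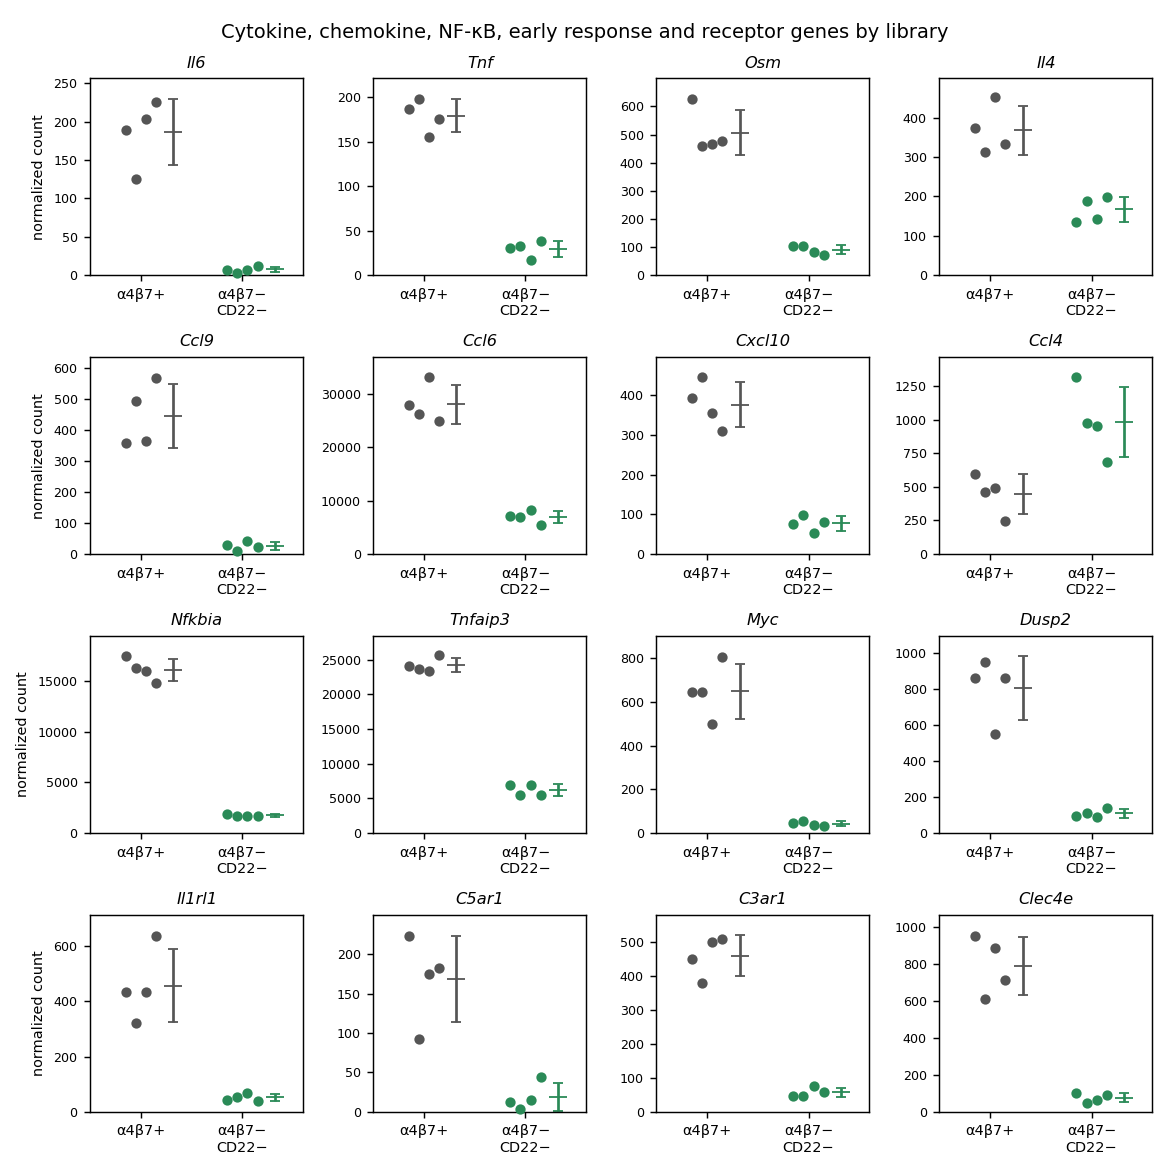
Normalized counts of 16 cytokine, chemokine, NF-κB, early response, and receptor genes in each of the 4 α4β7+ (gray) and 4 α4β7− CD22− (green) libraries, 1 point per library in replicate order, with mean ± SD and axes starting at 0. The subsets do not overlap in any panel, and Ccl4 is the only one of the 16 that is higher in α4β7− CD22−.

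The receptor genes for the alarm cytokines interleukin-33 and interleukin-25 were lower. Il1rl1 (chr1:40429570-40465415), which encodes the interleukin-33 receptor ST2, measured 434, 323, 435, and 639 in α4β7+ and 43.6, 54.3, 69.4, and 39.3 in α4β7− CD22− libraries (log2FC -3.11 ± 0.38, adjusted p = 5.91e-05). Il17rb, the receptor chain for interleukin-25, went from 60.1 ± 18.3 to 20.4 ± 13.7 (log2FC -1.68 ± 0.45, adjusted p = 0.0204). Its libraries overlapped, and the call was lost when α4β7+ replicate 3 or α4β7− CD22− replicate 4 was left out. Innate lymphoid cells also express both receptors, and their markers moved in the same direction, as given above. Their part in these decreases was not tested. Over the 28 receptor genes of this list 6 fell and 4 rose (median -0.23), and only 3 were lower without α4β7+ replicate 4 or without α4β7− CD22− replicate 2. Csf2rb, the shared signalling chain of the interleukin-3, interleukin-5, and GM-CSF receptors, was not called (from 12305 ± 1316 to 14598 ± 1917, log2FC 0.24 ± 0.10, adjusted p = 0.115) and shares sequence with Csf2rb2. The 4 that rose included Csf3r, the G-CSF receptor, which shares sequence with a second record (log2FC 1.03 ± 0.17, adjusted p = 5.76e-04), Il1r2, a decoy receptor for interleukin-1 (log2FC 1.01 ± 0.18, adjusted p = 0.00122), and Il13ra1 (log2FC 0.78 ± 0.12, adjusted p = 4.49e-04). Cish, which STAT5 induces downstream of these receptors, fell from 1421 ± 180.4 to 740.0 ± 223 (log2FC -0.98 ± 0.19, adjusted p = 0.00285), and Stat2 rose from 985 ± 151 to 2294 ± 256 (log2FC 1.22 ± 0.11, adjusted p = 2.71e-06). These were the 2 of 28 JAK, STAT, and SOCS genes called, 3.57% in each direction, close to the 3.66% higher and 4.39% lower of all genes.

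Of 32 receptors for chemoattractants, complement, histamine, metabolites, and nucleotides, 9 fell and 4 rose (28.1% and 12.5%, against 4.39% and 3.66% of all genes), with a median of -0.41. Both complement C5a receptors and the C3a receptor were lower. C5ar1 measured 223, 93, 176, and 182 in α4β7+ and 12.8, 3.76, 15.4, and 44.2 in α4β7− CD22− libraries (log2FC -3.44 ± 0.53, adjusted p = 4.24e-04, or -2.74 at a pseudocount of 10). C3ar1 measured 451, 379, 500.5, and 511 in α4β7+ and 45.3, 46.7, 76.3, and 59.7 in α4β7− CD22− libraries (log2FC -3.01 ± 0.25, adjusted p = 1.73e-06). C5ar2, whose protein binds C5a without coupling to G proteins, measured 473, 378, 299, and 353 in α4β7+ and 76.4, 284, 128, and 154 in α4β7− CD22− libraries (log2FC -1.36 ± 0.30, adjusted p = 0.00634). In C5ar2, α4β7− CD22− replicate 2 lay just under the lowest α4β7+ library. Gpr65, a proton-sensing receptor, went from 3654 ± 180.2 to 868 ± 109 (log2FC -2.08 ± 0.11, adjusted p = 2.93e-08). Ffar1, a receptor for long-chain fatty acids, rose from 64.7 ± 11.7 to 215 ± 34.5 (log2FC 1.72 ± 0.17, adjusted p = 8.21e-06) and reached 780.2 ± 125 in CD22+ libraries.

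Lectin and immunoglobulin-like receptors changed in both directions. Of 17 C-type lectin receptors, 5 fell and 1 rose (median -0.64), and the 1 that rose, Clec4b1, lost its call without any 1 of 6 libraries (α4β7+ replicates 2, 3, or 4 and α4β7− CD22− replicates 1, 2, or 4). Clec4e, which encodes Mincle, a sensor of mycobacterial and fungal glycolipids, measured 956, 609.9, 887, and 715 in α4β7+ and 99, 49.4, 63.5, and 92.4 in α4β7− CD22− libraries (log2FC -3.40 ± 0.30, adjusted p = 3.00e-06) and averaged 15.2 ± 6.79 in CD22+ libraries. Clec4a2, an inhibitory lectin of the same gene cluster, measured 599, 616, 522, and 621 in α4β7+ and 76.1, 76.6, 91.6, and 60.1 in α4β7− CD22− libraries (log2FC -2.95 ± 0.15, adjusted p = 2.33e-08). Cd69, a lectin that holds cells in tissue, went from 4366 ± 609.7 to 1136 ± 77.5 (log2FC -1.93 ± 0.11, adjusted p = 3.74e-08), and Clec12a, an inhibitory receptor for uric acid crystals, from 1207 ± 116 to 389.7 ± 43.9 (log2FC -1.63 ± 0.14, adjusted p = 2.76e-06). Of the 35 paired immunoglobulin-like, CD300, and Fc receptors 5 rose and 4 fell, a nearly even split (14.3% and 11.4%, against 3.66% and 4.39% of all genes). The genes of this list named here are all among the 4 that fell. Pira6 (-2.62 ± 0.20) and Pira2 (-0.95 ± 0.11), activating receptors whose transcripts share at least 95% of the matched letters with those of up to 9 other genes so that reads may be divided between them, were lower, as was Cd300lb (log2FC -1.93 ± 0.15, adjusted p = 7.24e-07). In the Siglec family Siglecg measured 613, 749.8, 978, and 974 in α4β7+ and 183, 243, 240.3, and 177 in α4β7− CD22− libraries (log2FC -1.96 ± 0.17, adjusted p = 2.04e-06), while Cd33 rose from 2259 ± 292 to 4797 ± 705 (log2FC 1.08 ± 0.10, adjusted p = 5.98e-06), both encoding sialic acid-binding lectins. Of the 7 Siglec genes tested besides the gate gene Cd22, Cd33 and Siglecg were the ones called, and 2 were lower without α4β7+ replicate 1.

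The cyclooxygenase genes, which start prostaglandin synthesis, moved in opposite directions. Ptgs2, the inducible cyclooxygenase, measured 8828, 5785, 7355, and 4895 in α4β7+ and 2007, 1406, 1945, and 1521 in α4β7− CD22− libraries (log2FC -1.94 ± 0.17, adjusted p = 3.20e-06). Ptgs1, the constitutive one, measured 1040, 1006, 870.5, and 834 in α4β7+ and 1701, 1646, 1249, and 1797 in α4β7− CD22− libraries (log2FC 0.76 ± 0.14, adjusted p = 0.00222). The subsets did not overlap in either gene. Ptger3, which encodes the EP3 receptor for prostaglandin E2, measured 60.4, 93.4, 40.02, and 36.9 in α4β7+ and 653, 475, 395, and 563 in α4β7− CD22− libraries (log2FC 3.23 ± 0.25, adjusted p = 7.28e-07) and averaged 1117 ± 161 in CD22+ libraries. Ptger2, which encodes the EP2 receptor for the same ligand, went from 101 ± 10.6 to 169 ± 27.4 (log2FC 0.73 ± 0.16, adjusted p = 0.00612). Alox15, the 12/15-lipoxygenase gene that eosinophils express at a high level, fell from 30556 ± 2877 to 18333 ± 1167 (log2FC -0.73 ± 0.08, adjusted p = 1.82e-05), a call that was lost under quantile normalization. Of the 27 prostaglandin and leukotriene genes 3 rose and 3 fell.

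Sterol synthesis was the list with the highest share of increases. Cholesterol is built from acetyl-CoA by way of mevalonate, farnesyl pyrophosphate, squalene, and lanosterol, and the transcription factor SREBP2 induces these enzymes together when sterols in the endoplasmic reticulum are low. Of 35 genes tested 20 rose and none fell, 57.1% against 3.66% of all genes. Estimates lay above 0 in 28 of them, against 50.2% of all genes, with a median of 0.70. No fewer than 19 rose in any alternative at the same thresholds. At an unadjusted p under 0.05 in limma 21 were higher and 1 was lower. In the order of the pathway, the rising genes included Hmgcs1, Mvk, Pmvk, and Mvd of the mevalonate steps, Idi1 and Fdps of the isoprenoid steps, Fdft1 and Sqle, which make and oxidize squalene, and Lss, Msmo1, Nsdhl, Hsd17b7, and Dhcr7 of the sterol steps. Srebf2, which encodes SREBP2, its regulator Insig1, the sterol carrier Stard4, and Soat1, which esterifies cholesterol, also rose.

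The largest changes on this list were those of Idi1, isopentenyl diphosphate isomerase, at 1001, 704, 468, and 656 in α4β7+ and 2347, 2905, 2378, and 2362 in α4β7− CD22− libraries (log2FC 1.86 ± 0.18, adjusted p = 6.90e-06), and of Hsd17b7, a ketosteroid reductase of the sterol steps. Hsd17b7 measured 141, 177, 39.2, and 125 in α4β7+ and 442, 438, 234, and 351 in α4β7− CD22− libraries (log2FC 1.74 ± 0.38, adjusted p = 0.00549). Msmo1, the C4-methylsterol oxidase gene, went from 972 ± 305 to 2635 ± 344 (log2FC 1.48 ± 0.17, adjusted p = 3.47e-05), Fdps from 545 ± 153 to 1469 ± 281 (log2FC 1.45 ± 0.17, adjusted p = 3.35e-05), and Sqle, the squalene epoxidase gene, from 354 ± 95.1 to 890.1 ± 209 (log2FC 1.34 ± 0.19, adjusted p = 2.07e-04). Insig1, whose protein holds SREBP back in the endoplasmic reticulum, went from 721 ± 255 to 1700 ± 448 (log2FC 1.26 ± 0.24, adjusted p = 0.00222). The libraries did not overlap in any of these 6 genes, although α4β7+ replicate 3 was the lowest library in 5 of them, Msmo1 being the exception. Cyp51, lanosterol demethylase, was not called (from 1381 ± 550.2 to 2118 ± 353, log2FC 0.68 ± 0.23, adjusted p = 0.0582). It was called under 7 alternatives. Sc5d was not called (from 1932 ± 307 to 2041 ± 329). In fatty acid synthesis 4 of 23 rose and 1 fell, or none fell without α4β7+ replicates 3 or 4 or α4β7− CD22− replicates 1, 2, or 3. Scd2, a stearoyl-CoA desaturase, went from 358 ± 96.2 to 909 ± 117 (log2FC 1.37 ± 0.17, adjusted p = 5.91e-05), and Fasn, the fatty acid synthase, from 686 ± 285 to 1273 ± 249 (log2FC 0.95 ± 0.22, adjusted p = 0.00807) with overlapping libraries, while Acly, which supplies acetyl-CoA to both pathways, was not called (from 4388 ± 341 to 4593 ± 236).

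Promoter stretches of the 3 sterol genes with the largest changes are shown, because each holds a pair of CCAAT boxes, the binding letters of the factor NF-Y that acts beside SREBP. CCAAT or its reverse complement is in capitals, and each stretch is the 100 bases before the RefSeq start (GRCm38.p6), printed 5′ to 3′: Idi1 from chr13:8885506-8885605 on the plus strand, Hsd17b7 from chr1:169969206-169969305 and Msmo1 from chr8:64733579-64733678 on the minus strand.
Idi1: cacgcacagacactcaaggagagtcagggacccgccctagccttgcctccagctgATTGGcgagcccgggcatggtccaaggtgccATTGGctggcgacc
Hsd17b7: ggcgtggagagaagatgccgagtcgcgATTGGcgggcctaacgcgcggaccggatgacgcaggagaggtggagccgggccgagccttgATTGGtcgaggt
Msmo1: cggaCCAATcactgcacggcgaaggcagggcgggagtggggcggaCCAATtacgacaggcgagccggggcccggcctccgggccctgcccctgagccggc
CCAAT on either strand occurred in 33.8% of all promoters over 250 bases, in 35.1% of those of genes tested, in 22 of the 35 of sterol genes tested, in 38.6% of the promoters of genes called higher, and in 13 of the 16 promoters listed for called sterol genes, which belonged to 13 genes, all of which had it in at least 1 promoter. The letters TCACNCCAC, an SREBP binding motif, were rarer at 1.05% of all promoters and 0.951% of those of genes tested, and 1 of these 16 promoters held them, that of Hmgcs1.

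Of 23 genes of glycolysis and lactate handling 10 fell and none rose (43.5% against 4.39% of all genes called lower), with a median of -0.66, and 13 were not called. At an unadjusted p under 0.05 in limma 16 were lower and 0 higher. Eno1, the enolase gene, measured 9510, 8246, 9846, and 8910 in α4β7+ and 3602, 3190, 3440, and 3276 in α4β7− CD22− libraries (log2FC -1.43 ± 0.07, adjusted p = 2.33e-08). Pgk1, phosphoglycerate kinase, measured 1730, 1886, 1998, and 1743 in α4β7+ and 872, 792, 834, and 846 in α4β7− CD22− libraries (log2FC -1.14 ± 0.09, adjusted p = 7.51e-07). In both genes every α4β7− CD22− library was far under the α4β7+ range. Tpi1 (-1.19 ± 0.16), Pfkl (-1.23 ± 0.22), and Pgam1 (-0.72 ± 0.14) also fell, together with Gapdh, Aldoa, Hk2, Hk3, and the glucose transporter gene Slc2a1. Slc2a6, a further glucose transporter family gene, measured 277, 186, 342, and 396 in α4β7+ and 11, 17.5, 42.3, and 66.4 in α4β7− CD22− libraries (log2FC -3.35 ± 0.46, adjusted p = 1.71e-04). Pkm, pyruvate kinase, went from 15520 ± 948 to 11683 ± 676 and stayed under the fold threshold (log2FC -0.41 ± 0.06, adjusted p = 4.10e-04). Processed copies of Eno1, Pgk1, Pgam1, and Pkm elsewhere in the genome share over 95% of their letters with part of the transcript, so reads may be divided between them. Gm4735, a copy of Eno1 looked up after its values were seen, itself fell by 4.90 on the log2 scale. Of 22 hypoxia response genes 3 fell, among them Egln3, an oxygen sensor (log2FC -1.79 ± 0.40, adjusted p = 0.0071), and Hif1a was not called (from 7128 ± 511 to 5969 ± 124, log2FC -0.25 ± 0.07, adjusted p = 0.019). Of 78 genes of the respiratory chain 1 fell, Cox5a (log2FC -0.60 ± 0.10, adjusted p = 0.0012), whose call was lost without α4β7+ replicate 2 or 3, without α4β7− CD22− replicate 2, with a pseudocount of 10, after rescaling by the 75th percentile, and with the total without ribosomal protein genes. Estimates lay below 0 in 68 of the 78, and at an unadjusted p under 0.05 in limma 22 were lower and 1 higher. There were 2 lower without α4β7+ replicate 1 or α4β7− CD22− replicate 4, and 1 higher without α4β7+ replicate 3. Atp5b was not called (from 3686 ± 205 to 3214 ± 552).

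All 83 cytosolic ribosomal protein genes tested had estimates below 0, against 49.8% of all genes. Of these 47 were called lower (56.6%) and 36 were not called, and the median was -0.62. At an unadjusted p under 0.05 in limma 72 were lower. They took 1.86% to 2.26% of the α4β7+ totals and 1.17% to 1.51% of the α4β7− CD22− totals. Rps19 measured 3169, 4273, 2228, and 2741 in α4β7+ and 882, 969.6, 781, and 1037 in α4β7− CD22− libraries (log2FC -1.72 ± 0.18, adjusted p = 1.36e-05). Rpl10a measured 1319, 1747, 1098, and 1507 in α4β7+ and 432, 710.2, 618, and 781 in α4β7− CD22− libraries (log2FC -1.17 ± 0.18, adjusted p = 4.39e-04). Rps2 measured 4420, 5026, 4074, and 4263 in α4β7+ and 2016, 2215, 1835, and 2088 in α4β7− CD22− libraries (log2FC -1.12 ± 0.14, adjusted p = 5.02e-05). In all 3 genes α4β7+ replicate 2 was the highest library, and the subsets did not overlap. The count of ribosomal protein genes called moved with the settings. It was 30 without α4β7+ replicate 2, the library with the highest ribosomal protein share, 30 with the total taken without these genes, 36 under quantile normalization, and 3 at a fold change of 2. Rps2, Rplp0, and Rpl10a have pseudogenes of over 95% identity.

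Genes that build ribosomes fell as well, 10 of 36 and none higher (median -0.43), or 21 and 0 at an unadjusted p under 0.05 in limma. Dkc1, the pseudouridine synthase of ribosomal RNA, went from 291 ± 37.9 to 137 ± 41.6 (log2FC -1.12 ± 0.22, adjusted p = 0.00334), and Fbl, the methyltransferase fibrillarin, from 713 ± 33.1 to 402 ± 72.4 (log2FC -0.84 ± 0.13, adjusted p = 3.78e-04). Npm1, nucleophosmin, was not called (from 2506 ± 155 to 1860 ± 108, log2FC -0.43 ± 0.10, adjusted p = 0.00954). Of 53 initiation and elongation factors, 6 fell (10 without α4β7+ replicate 3), led in level by Eef1a1, which carries tRNA to the ribosome (from 23225 ± 2210 to 14339 ± 684, log2FC -0.69 ± 0.09, adjusted p = 7.48e-05), whose call was lost under quantile normalization. Its transcript matches 8 other genes over up to 77.4% of its length, so reads may be divided between them, and Npm1 matches 4. Of 77 mitochondrial ribosomal protein genes 1 fell, with a median of -0.14 and, at an unadjusted p under 0.05 in limma, 9 lower and 1 higher, and this call was lost when any single library was left out.

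**Figure D4:**
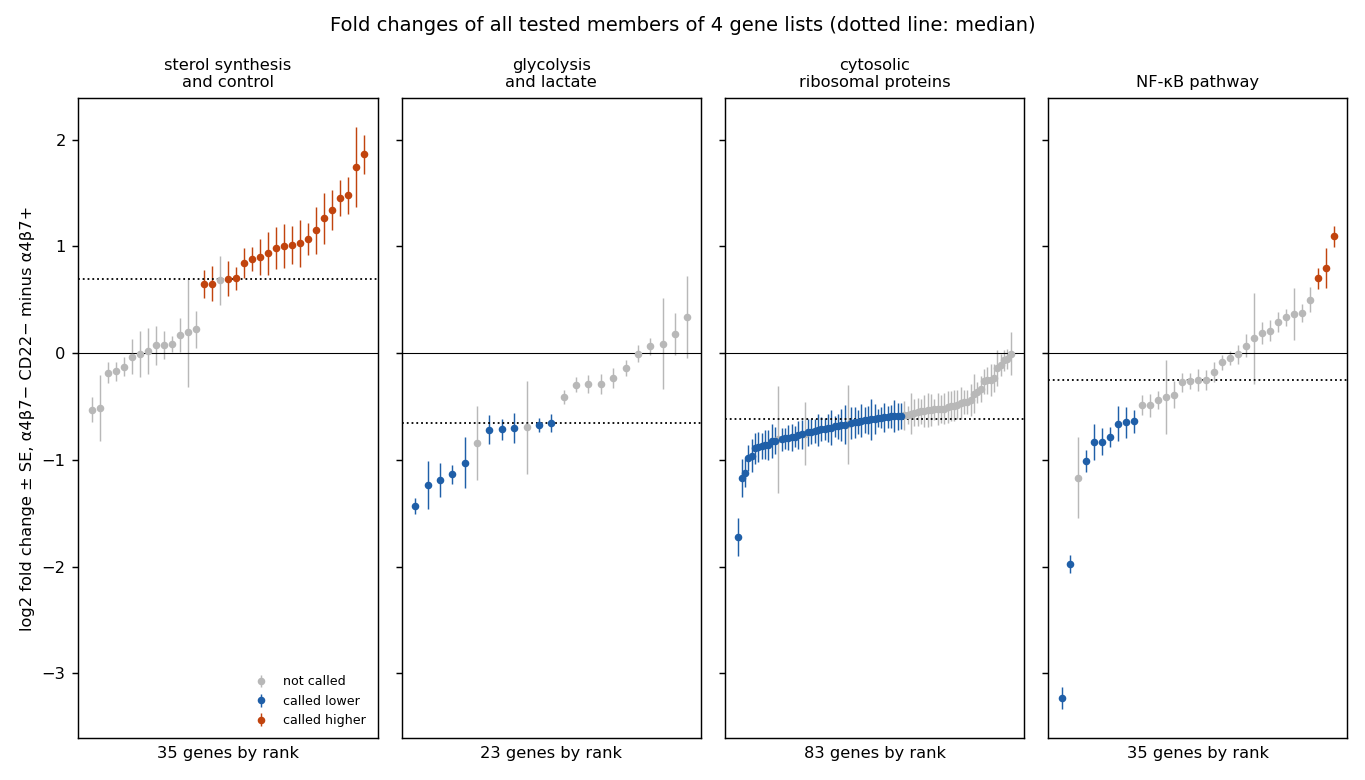
Log2 fold change ± SE (α4β7− CD22− minus α4β7+) of every tested member of 4 gene lists, ordered by value within each list, with called genes in color and the list median as a dotted line. The 35 sterol genes lie mostly above 0 with a median of 0.70, the 23 glycolysis genes and 83 ribosomal protein genes mostly below 0 with medians of -0.66 and -0.62, and the 35 NF-κB genes spread to both sides around -0.25.

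Genes of class I antigen presentation fell in part. Of 17 tested 5 were lower and none higher, and those 5 encode chains of the complex itself. At an unadjusted p under 0.05 in limma 11 were lower and 1 higher. H2-K1 went from 20260 ± 1820 to 12166 ± 408 (log2FC -0.73 ± 0.09, adjusted p = 5.21e-05), H2-D1 from 23803 ± 1386 to 14597 ± 396 (log2FC -0.70 ± 0.07, adjusted p = 5.83e-06), and B2m, the shared light chain, from 17881 ± 966 to 10807 ± 1038 (log2FC -0.73 ± 0.08, adjusted p = 3.09e-05). The nonclassical genes H2-Q6 (log2FC -1.40 ± 0.18, adjusted p = 1.08e-04) and H2-Q7 (log2FC -1.35 ± 0.18, adjusted p = 1.42e-04) were lower, and H2-Q6 matched H2-Q7 over 43.8% of its length. Tapbp, which loads peptides, was not called (from 5831 ± 620.3 to 5552 ± 413). Under quantile normalization H2-K1, H2-D1, and B2m lost their calls, leaving 2 of the 17.

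On the list of granule proteins and associated enzymes 4 of 9 genes were lower and none higher (6 and 0 at an unadjusted p under 0.05 in limma). The 4 were Prg2, Ear1, Ear6, and Alox15, the lipoxygenase gene given above that is not a granule protein gene. With only genes of a mean above 50 tested 2 were lower, since Ear1 and Ear6 lie under this filter. Prg2, which encodes major basic protein, went from 352 ± 43.4 to 185 ± 18.8 (log2FC -0.92 ± 0.21, adjusted p = 0.00684), and Ear1, a ribonuclease gene, from 60.4 ± 11.3 to 21.9 ± 3.09 (log2FC -1.41 ± 0.36, adjusted p = 0.0158), with sequence shared with Ear2 and other copies. Ear6 (from 60.7 ± 7.18 to 21.1 ± 11.5) was called at an adjusted p of 0.0338 in limma and lost the call without any 1 of 5 libraries (any α4β7+ replicate or α4β7− CD22− replicate 4), without the filter, and without limma's trend. Srgn, the proteoglycan that packs granules, moved from 37338 ± 3170 to 28410 ± 3412 under the fold threshold. Of 17 lineage transcription factors only Gata2 was called, higher from 399 ± 37.7 to 622 ± 46.5 (log2FC 0.64 ± 0.11, adjusted p = 8.30e-04), and Cebpb was not (from 10916 ± 539 to 8473 ± 455).

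Actin regulators fell in 5 of 38 cases. Capg, an actin capping protein gene, measured 562, 541, 664, and 520.4 in α4β7+ and 133, 165, 136, and 101 in α4β7− CD22− libraries (log2FC -2.10 ± 0.19, adjusted p = 3.50e-06). Vim, the intermediate filament gene vimentin, went from 1010 ± 117 to 348 ± 129.7 (log2FC -1.59 ± 0.26, adjusted p = 6.27e-04). Actb itself went from 235311 ± 19303 to 149834 ± 6933 (log2FC -0.65 ± 0.07, adjusted p = 1.81e-05), and its call was lost under quantile normalization, with a log2FC of -0.04, and without ribosomal protein genes in the total. Cfl1, cofilin (-0.61 ± 0.07), lost its call in the same settings and without α4β7+ replicate 2 or α4β7− CD22− replicates 3 or 4. Actb was 1 of 5 genes that took over 1% of a library, with Creb5, Lars2, Syne1, and Tmem38b. Lars2 took 1.79% to 3.76% of the α4β7+ totals and 0.81% to 2.62% of the α4β7− CD22− totals. Tmem38b was called lower (log2FC -1.27), and Creb5, Lars2, and Syne1 were not called. Together these 5 took 6.37% to 9.82% of the α4β7+ totals and 3.81% to 7.53% of the α4β7− CD22− totals.

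Of 34 genes of matrix remodelling and angiogenesis 4 fell and 1 rose. Thbs1, thrombospondin-1, measured 33639, 31883, 37846, and 31626 in α4β7+ and 10968, 10669, 10237, and 10722 in α4β7− CD22− libraries (log2FC -1.66 ± 0.10, adjusted p = 5.43e-08). Plaur, the urokinase receptor gene, rose from 6056 ± 671 to 11884 ± 1794 (log2FC 0.97 ± 0.12, adjusted p = 8.63e-05). Tgfbi, a matrix protein induced by TGF-β, fell from 5395 ± 295 to 2362 ± 154 (log2FC -1.19 ± 0.07, adjusted p = 1.07e-07). Mmp9, gelatinase B, went from 20009 ± 1684 to 12642 ± 1081 (log2FC -0.66 ± 0.08, adjusted p = 8.63e-05) and lost its call under quantile normalization and without ribosomal protein genes in the total.

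Surface peptidases included 4 increases (22.2% against 3.66% of all genes) and no decrease among 18 genes tested, although the median of the list was -0.33. At an unadjusted p under 0.05 in limma 5 were higher and 2 lower. Dpep2, a dipeptidase that converts leukotriene D4, measured 729, 652, 519.7, and 493 in α4β7+ and 2766, 2843, 2598, and 2724 in α4β7− CD22− libraries (log2FC 2.21 ± 0.11, adjusted p = 1.98e-08). Its neighbour Dpep3 measured 21.7, 11.4, 7.39, and 20.8 in α4β7+ and 137, 100.4, 109.7, and 129 in α4β7− CD22− libraries (log2FC 2.98 ± 0.29, adjusted p = 6.81e-06, or 2.38 at a pseudocount of 10). The annotation holds a second, overlapping record of Dpep2, and the record with the higher count is given. Ggt5, a γ-glutamyltransferase that acts one step earlier in the same pathway, went from 404 ± 33.1 to 946 ± 146 (log2FC 1.22 ± 0.11, adjusted p = 3.55e-06). Ace, the angiotensin-converting enzyme, measured 182, 129.5, 197, and 258 in α4β7+ and 451, 374, 392, and 510.3 in α4β7− CD22− libraries (log2FC 1.20 ± 0.18, adjusted p = 3.53e-04) and averaged 1954 ± 282 in CD22+ libraries.

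The increases of largest size were spread over genes of many functions, several of which are known mainly from other tissues. Myh7b (chr2:155611212-155634307), a myosin heavy chain gene of slow muscle, measured 24.3, 19.6, 21, and 15.2 in α4β7+ and 345, 190.4, 255, and 327 in α4β7− CD22− libraries (log2FC 3.72 ± 0.20, adjusted p = 2.93e-08). Dlg2, a synaptic scaffold gene, went from 61.2 ± 22.2 to 400.4 ± 119.9 (log2FC 2.72 ± 0.25, adjusted p = 3.85e-06), and Cacng8, an auxiliary subunit of AMPA receptors, from 52.4 ± 14.8 to 212 ± 15.6 (log2FC 2.04 ± 0.19, adjusted p = 5.31e-06). A pair of glycosyltransferase genes of blood group type sugars rose, B3galt5 from 26.6 ± 11.6 to 183 ± 56.4 (log2FC 2.82 ± 0.32, adjusted p = 3.04e-05) and Fut1 from 34.1 ± 13.2 to 231 ± 85.2 (log2FC 2.72 ± 0.28, adjusted p = 1.34e-05). Sash1, a signalling scaffold gene, measured 421, 399, 274, and 415 in α4β7+ and 1986, 2160, 1920, and 2298 in α4β7− CD22− libraries (log2FC 2.49 ± 0.14, adjusted p = 4.27e-08). Notch4, a Notch receptor gene, measured 252, 220.4, 472, and 325 in α4β7+ and 1344, 1545, 2017, and 1703 in α4β7− CD22− libraries (log2FC 2.42 ± 0.19, adjusted p = 8.41e-07). St18, a zinc finger transcription factor gene, went from 82.5 ± 44.3 to 346 ± 79.95 (log2FC 2.15 ± 0.27, adjusted p = 7.89e-05). Fndc5, the gene from which irisin derives, went from 327 ± 54.5 to 1615 ± 122 (log2FC 2.31 ± 0.12, adjusted p = 2.62e-08), and Gsdme, the pore-forming gasdermin E, from 175 ± 35.5 to 746 ± 88.9 (log2FC 2.10 ± 0.16, adjusted p = 7.24e-07).

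Among the decreases of largest size that no group above covers, Slpi, an inhibitor of neutrophil elastase that is also made by epithelia, measured 476, 517, 274, and 404 in α4β7+ and 22.7, 12.5, 20.4, and 22.8 in α4β7− CD22− libraries (log2FC -4.34 ± 0.29, adjusted p = 2.54e-07). The enterocyte and goblet cell markers had estimates below 0 as well, as given above, and the part of epithelial RNA in this decrease was not tested. Padi4, which converts arginine in histones to citrulline in granulocytes that release DNA, measured 1460, 1109, 1102, and 1897 in α4β7+ and 109, 124, 144, and 96.5 in α4β7− CD22− libraries (log2FC -3.52 ± 0.26, adjusted p = 6.58e-07). Slc11a1, the phagosomal metal transporter NRAMP1, went from 924 ± 112 to 214 ± 44.1 (log2FC -2.12 ± 0.21, adjusted p = 8.27e-06), and Bid, a death promoter of the BCL2 family, from 359.6 ± 28.4 to 161 ± 21.6 (log2FC -1.16 ± 0.13, adjusted p = 3.34e-05), the 1 gene of 19 in its family that was called. Mcl1, a survival gene of the same family with a high level, was under the fold threshold (from 23156 ± 857 to 19186 ± 1553), and Tfrc, the transferrin receptor, was not called (from 1356 ± 147 to 1566 ± 126, log2FC 0.21 ± 0.10, adjusted p = 0.188).

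Other groups showed few or mixed calls. Of 25 inflammasome and NOD genes 5 rose, including Nlrp1a (0.99 ± 0.11) and the pyrin gene Mefv (1.00 ± 0.09), and 2 fell, including Casp4 (-1.05 ± 0.21). Of 42 lysosomal genes 5 rose (3 without α4β7+ replicate 2) and 2 fell, with Cd68 higher (0.95 ± 0.12) and Ctsd, cathepsin D, which shares sequence with an overlapping record, lower (-1.40 ± 0.11). Numbered zinc finger genes rose in 21 of 319 cases (6.58% against 3.66% of all genes) and fell in 6 (1.88% against 4.39%), with a median of 0.16. Estimates lay above 0 in 231 of them, against 50.2% of all genes, and at an unadjusted p under 0.05 in limma 84 were higher and 14 lower. The higher count was 31 with the total without ribosomal protein genes, and the lower count was 2 or 3 when α4β7+ replicate 1 or 3 or α4β7− CD22− replicate 1 or 2 was left out. The 247 solute carrier genes were split evenly, 9 higher and 9 lower. Of 21 Toll-like receptor and adaptor genes 1 was lower (4.76%) and none higher. Of 44 interferon response genes 3 were higher and 1 lower (6.82% and 2.27%, against 3.66% and 4.39% of all genes). Of 54 DNA replication and cell cycle genes 5 rose (9.26% against 3.66% of all genes), 8 without α4β7+ replicate 2 and 3 without α4β7− CD22− replicate 4. Among surface genes known from intestinal eosinophils, the checkpoint ligand gene Pdcd1lg2 and the ectonucleotidase gene Entpd1 rose, and 6 of 24 fell, Adgre5, Cd101, Cd24a, Cd52, Lgals3, and Ly6e.

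The remaining lists are given by their counts, beside 3.66% of all genes called higher and 4.39% called lower. Of 41 NADPH oxidase and antioxidant genes 5 fell (12.2%), among them Cybb, Gpx1, and Sod2, and Hmox1 rose (2.44%), a call that was lost without α4β7+ replicates 1, 2, or 4 or α4β7− CD22− replicates 1, 2, or 3. Of 26 TNF superfamily genes 4 fell (15.4%), including Fas and Tnfsf14, and Tnfrsf1a rose (3.85%), with a second gene higher without α4β7− CD22− replicate 1. Of 22 cytosolic aminoacyl-tRNA synthetases 3 fell (Dars, Iars, and Wars), of 28 endoplasmic reticulum stress genes 2 fell (Herpud1 and Hspa5), of 26 chaperone genes 1 fell (Dnaja1), and of 32 autophagy genes 1 fell (Wipi1). Cilium assembly genes rose in 5 of 39 cases (12.8%), 3 without α4β7− CD22− replicate 1 or 2, and fell in 1 (2.56%), or in none without α4β7+ replicate 1 or α4β7− CD22− replicates 2 or 4. TGF-β pathway genes fell in 2 of 26 cases (7.69%, Smad3 and Tgif1) and rose in 1 (3.85%, Ltbp1), a call that was lost without α4β7+ replicates 2, 3, or 4 or α4β7− CD22− replicates 2, 3, or 4. Of 20 circadian clock genes Nr1d2 rose and Rora fell. Rora is also 1 of the 3 natural killer and innate lymphoid cell markers called lower. Without α4β7+ replicate 1, 3 clock genes rose, and 2 without α4β7− CD22− replicate 4, while none fell without α4β7+ replicate 2 or α4β7− CD22− replicate 3. Of 21 iron and heme genes Hmox1 rose, with the limit just given, and Slc11a1 fell, and 2 rose without α4β7+ replicate 3. Of 69 histone genes 2 rose (H1f0 and H2ac18), or 1 without α4β7− CD22− replicate 1. The 13 mitochondrially encoded genes, which took 0.847% to 1.08% of the α4β7+ totals and 0.617% to 0.864% of the α4β7− CD22− totals, included 1 that fell, and 8 lower against 0 higher at an unadjusted p under 0.05 in limma. The count was 5 without α4β7− CD22− replicate 3 and 2 without α4β7+ replicates 1 or 2 or α4β7− CD22− replicate 4. It was 0 without α4β7+ replicate 3 or α4β7− CD22− replicates 1 or 2, under quantile normalization, with the total without ribosomal protein genes, and without the trend of limma. None of 41 proteasome subunits was called, with 14 lower and 0 higher at an unadjusted p under 0.05 in limma. Leaving out 1 library added 1 call to several of the lists with few. Without α4β7+ replicate 1 a histone gene was lower, and a gene of DNA replication was lower without replicate 1, 2, or 4 of this subset. Without replicate 3 a JAK and STAT gene and an endoplasmic reticulum stress gene were higher and a chaperone gene lower, and without replicate 4 a JAK and STAT gene was lower. For α4β7− CD22− replicate 1 the added calls were a lower lineage factor, a lower proteasome subunit, and a higher autophagy gene, for replicate 2 a higher BCL2 family gene, and for replicate 4 a higher endoplasmic reticulum stress gene, a lower interferon response gene, and a lower gene of DNA replication.

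**Figure D5:**
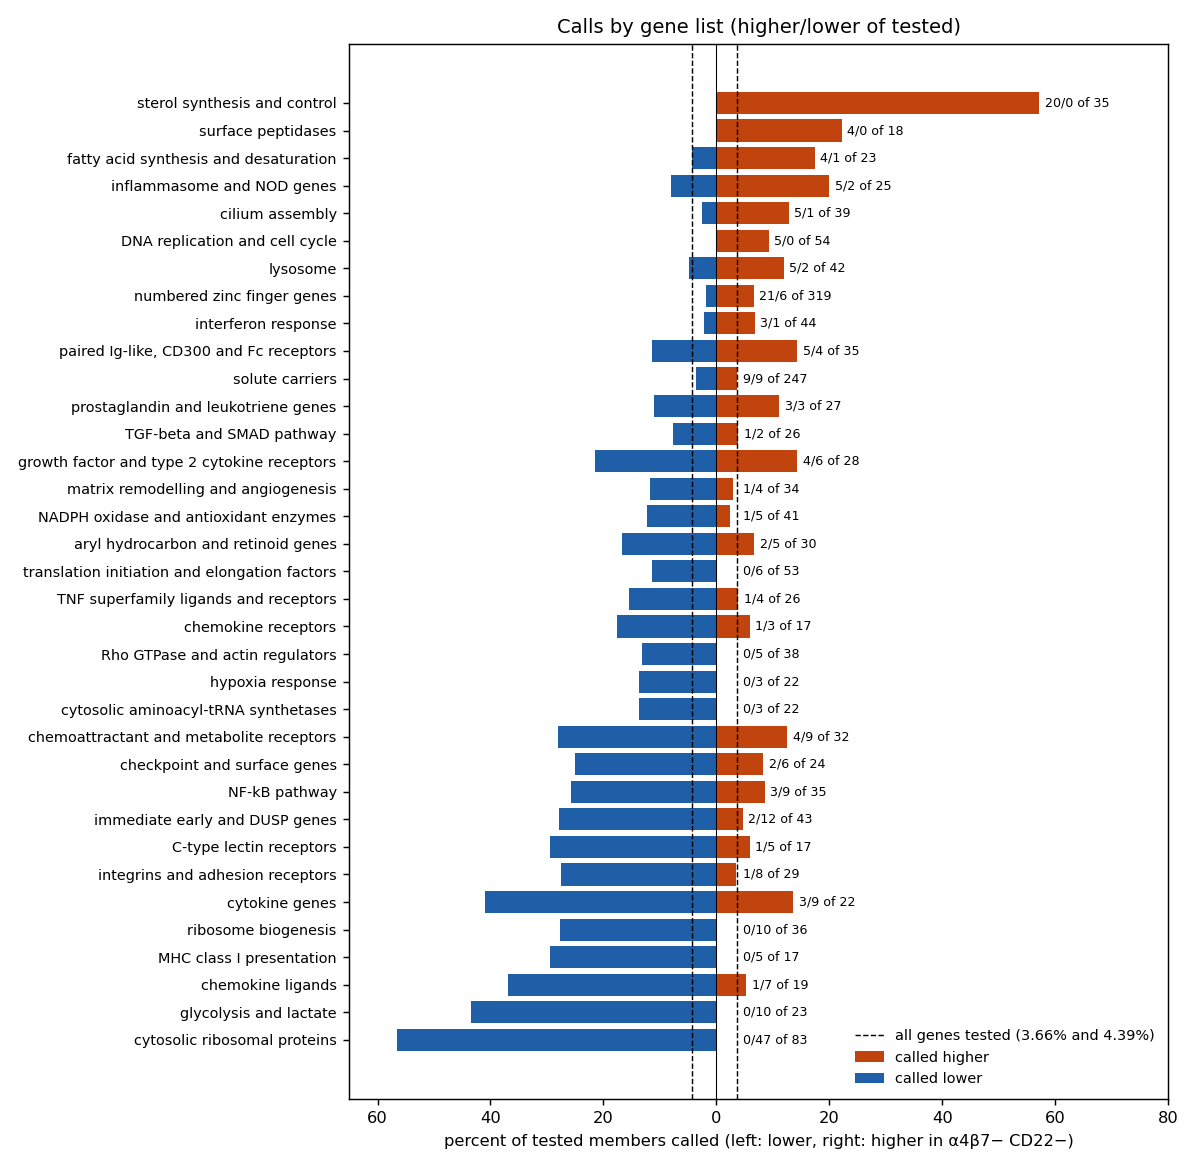
Percent of tested members called lower (blue, left) or higher (orange, right) in α4β7− CD22− for gene lists with at least 10 members tested and 3 called, with counts beside the bars and dashed lines at the shares over all 15231 genes (3.66% higher, 4.39% lower). The bar for integrins includes Itgb7 and Itga4. Sterol synthesis stands furthest to the right at 57.1% and cytosolic ribosomal proteins furthest to the left at 56.6%, with solute carriers close to both dashed lines.

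Called genes were also described by their transcripts. The median length of the longest transcript was 3332 bases over all genes tested and 3332 bases in genes called higher, but 2705.5 bases in genes called lower, or 2852 bases without the ribosomal protein genes. The median number of exons was 7 over all, 8 in genes called higher, and 6 in genes called lower, and the median GC content was 48.9%, 49.99%, and 50.4%. Their level was a median of 246 normalized counts for those higher and 375 for those lower against 202 over all. Protein-coding genes made up 94.1% and 91.9% of the genes called higher and lower and 92.3% of those tested.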

How the data were processed

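RNA was measured in 12 libraries of sorted eosinophils, of which the 4 α4β7+ and 4 α4β7− CD22− libraries are compared. The authors trimmed reads with Trimmomatic 0.39, quantified them with kallisto 0.46.1 (mm10, GRCm38), and deposited DESeq2 1.38.2 normalized counts, a signal that is not whole reads, so read depth is unknown and library size is given as the sum of deposited values. Normalization can hide a change shared by all genes. The kit was stranded, but how strand was used in quantification is not given in the sources used here. The table holds 36047 genes, all matched by ID to the annotation, and 26372 have a symbol.

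From these values log2(normalized count + 1) was fitted with limma 3.58.1 (R 4.3.3, with trend) over all 12 libraries, so that the 3 subsets share 1 estimate of the spread. This replaces the authors' count model because the values are not counts. The pseudocount understates the change of low genes. Genes with a mean over 10 in the 8 libraries were tested, and a gene was called at a fold change of at least 1.5 and an adjusted p of at most 0.05. Groups come from the labels. Single values per library were compared with a two-sided exact permutation test of 4 against 4. On simulated data (15231 genes, 200 changed), 93% of changed genes were recovered and 3 of 15031 unchanged genes were called. Both values hold for the simulated data only, and recovery in the 8 libraries themselves was not tested.

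The genes and the 66 lists were chosen with earlier results of these data known. Named genes were the sort genes, in each direction the 15 largest called changes without overlap and with a mean of at least 100, up to 6 called members (mean of at least 30) and 2 uncalled members of each list, and genes that the study discusses, with some left out. A few genes are not reported here. Il1b and Gm4735 were added after their values were seen. Near-identical copies were searched with BLAST+ 2.17.0 (at least 95% identity over at least 25% of the length). Promoters are those of RefSeq (GRCm38.p6), searched over 250 bases before the start on both strands, of which 100 are printed. The printed stretch was the one with the most motif letters. The alternatives tried were other pseudocounts (0.1 and 10), other filters, 3 rescalings, a fit without trend, a fit on 8 libraries, a replicate block, other thresholds, and leaving out each library.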

Additional observations from a re-analysis of the deposited data

Results flagged for a closer look

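Within each subset of 4 libraries, the value of 1 library was set against the other 3, and picked out where its gap to the nearest of them as a share of the whole range exceeded Dixon's 95% critical value. Of 326 groups tested (163 named genes in each subset) 17 held such a library, 5.21%, and chance gives about 1 in 20. In the α4β7+ subset, replicate 1 was high for Osm at 628 normalized counts (458 to 477 in the others), and replicate 2 was high for Trac at 200 (81.8 to 86.5) and low for Birc3 at 12062 (15109 to 15636). Replicate 3 was low for Sash1 at 274 (399 to 421), and replicate 4 was high for St18 at 148 (51.9 to 66.2) and low for Cd69 at 3461 (4543 to 4737).

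In the α4β7− CD22− subset, replicate 1 was high for Cebpb at 9148 (8188 to 8342), Gsdme at 879 (688 to 715), and Mmp9 at 14243 (11866 to 12241). Replicate 2 was high for the lipid synthesis genes Acly at 4945 (4444 to 4500) and Idi1 at 2905 (2347 to 2378), and replicate 3 for Ptger2 at 209 (153 to 159). Replicate 4 was high for Casp4 at 115 (68.6 to 72.0), Cd3e at 103 (54.6 to 60.7), and Slc11a1 at 280 (190 to 194), and low for Jun at 2073 (3029 to 3215) and Zfp36 at 12577 (14569 to 14842). Replicate 4 accounted for 5 of the 17.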

How the results depend on the processing

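No gene called in the comparison changed the sign of its estimate under any of the 21 alternatives run that tested it, but 145 of the 1226 were not tested at a mean above 50 and 3 at a mean above 10 over all 12 libraries. Calls lost only at a fold change of 2 are not listed gene by gene. The thresholds moved the counts most, to 1081 higher and 1182 lower by adjusted p alone and to 239 higher and 315 lower at a fold change of at least 2. Leaving out 1 library at a time gave 497 to 573 genes higher and 588 to 632 lower, and between 82.7% and 85.8% of the 1226 calls were kept. With the total without ribosomal protein genes, 773 genes were higher and 519 lower. Replicate numbers are shared between subsets, but no source says that they pair libraries. Deviations of same-numbered libraries correlated at 0.0545, 0.131, 0.135, and 0.0477, so only 2 of 4 pairs exceeded 0.1, although 7 of 8 libraries were closest to their own number. With a replicate block 565 genes were higher and 690 lower. Of 3418 values of named genes under the alternatives, 3297 kept direction and side of the thresholds, 102 lost and 19 gained a call, and 0 reversed. Of 2772 counts of list members 2506 stayed within 1.5 times. The rescalings moved the median of all genes by 0.02, 0.03, and 0.09 on the log2 scale. Among named genes called, Cox5a, Cyp26b1, Ear6, and Sis lost their calls under the most alternatives.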
